A study of Mus musculus with 18 samples.

Results

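The report concerns 30 genes of cholesterol synthesis, uptake and transport, taken as a fixed list of symbols from the 57010 gene IDs of the ovary and uterus count tables. By role they were 18 synthesis enzymes (7 from acetyl-CoA to farnesyl pyrophosphate and 11 from squalene to cholesterol), 4 sterol-sensing and transcription genes, 6 genes of uptake, lysosomal release, esterification and intracellular transport, and 2 of efflux and lipoproteins. All 30 were found by symbol and all 30 passed the filter on low counts in both tissues. Total RNA had been sequenced as paired reads from whole ovary and uterus of C57B6/J mice aged 20 to 25 weeks. The 3 genotypes were ARE-/-, ARE+/- and WT, with 3 libraries for each genotype and tissue, 18 in all. The labels spell the alleles only as ARE; as background, mice of this name carry a replaced AU-rich element of the interferon gamma gene Ifng; such elements make an mRNA short-lived. All WT, ARE+/- and ARE-/- mice shared the strain and the age range, and no estrous stage is given for any mouse. One ARE-/- ovary library (replicate 6) and one WT uterus library (replicate 1) carry the word backup in their titles.

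Animal cells make cholesterol from acetyl-CoA through mevalonate, farnesyl pyrophosphate, squalene and lanosterol. When sterol in the endoplasmic reticulum is low, the escort protein SCAP carries the sterol regulatory element-binding proteins to the Golgi apparatus, where they are cleaved into transcription factors that raise the synthesis enzymes and lipoprotein receptors together, and INSIG proteins hold the complex back when sterol is plentiful. In the ovary cholesterol is also the substrate of steroid hormones: luteal cells take up much of it from high-density lipoprotein through SCARB1, store it as esters made by SOAT1 and pass it to mitochondria for progesterone synthesis.

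Because the enzymes are textbook targets of a shared control, the bases upstream of the start site were read for 24 of the 30 genes from RefSeq (mouse build GRCm38.p6). Fdps, Fdft1, Sqle, Scarb1, Npc1 and Stard4 are named only. A window of 300 bases per start site, 250 before and 50 after it, was searched on both strands; the 24 genes had 32 such promoters, so some genes had more than 1. The sterol regulatory element form TCACNCCAC was found in 1 of the 32 promoters (3.12%), that of Hmgcs1, against 1.24% of 32851 promoters of all genes. The NF-Y box CCAAT was found in 21 of 32 (65.6%), against 37.4% of all promoters, and the Sp1 box GGGCGG in 25 of 32 (78.1%), against 35.7%. Counted by gene, 20 of the 24 held CCAAT and 22 held GGGCGG in at least 1 promoter. AAGGTCA, a short NR5A receptor motif, was found in 1 promoter each of Dhcr7 and Hmgcs1, 2 of 32 (6.25%), against 4.72%. A match is a description of letters in this window and not a binding site. Shown as examples, chosen after the values were seen, are the 150 bases before the start of 4 enzymes whose levels are described below library by library; capitals mark CCAAT on either strand (ATTGG when read on the gene's strand) and, in Hmgcs1, the sterol regulatory element form.
Hmgcs1 (chr13:119690201-119690350, plus strand): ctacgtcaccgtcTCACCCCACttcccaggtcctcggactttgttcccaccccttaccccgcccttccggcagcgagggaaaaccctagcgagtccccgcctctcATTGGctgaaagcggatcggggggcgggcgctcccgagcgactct
Idi1 (chr13:8885456-8885605, plus strand): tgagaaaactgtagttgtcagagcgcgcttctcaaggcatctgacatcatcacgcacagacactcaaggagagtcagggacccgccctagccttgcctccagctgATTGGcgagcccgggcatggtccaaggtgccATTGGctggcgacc
Sc5d (chr9:42264301-42264450, minus strand): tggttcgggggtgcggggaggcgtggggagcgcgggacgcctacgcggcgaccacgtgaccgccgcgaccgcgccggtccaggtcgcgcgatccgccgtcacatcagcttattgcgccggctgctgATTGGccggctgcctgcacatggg
Hsd17b7 (chr1:169969206-169969355, minus strand): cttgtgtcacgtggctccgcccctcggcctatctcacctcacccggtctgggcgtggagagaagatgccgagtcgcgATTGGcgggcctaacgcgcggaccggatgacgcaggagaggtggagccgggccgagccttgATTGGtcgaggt
In these 4 stretches CCAAT lay once in Hmgcs1, once in Sc5d, and at 2 places each in Idi1 and Hsd17b7. The sterol regulatory element form of Hmgcs1 began at position -137 relative to the start.

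Deposited counts summed to 38132822 to 46647171 per ovary library and 33185496 to 49720354 per uterus library. No 2 libraries of a group were alike within counting noise. Ifng, the gene the allele name points to, had 51, 38 and 50 counts in ARE-/- ovaries, 18, 10 and 28 in ARE+/- ovaries, and 4, 0 and 4 in WT ovaries. Ifng counts of the uterus were 96, 130 and 56 for ARE-/-, 58, 36 and 70 for ARE+/-, and 4, 6 and 0 for WT. Ovary and uterus libraries carried the markers of their labelled tissues. The ARE-/- uterus replicate 1 stood apart: Inha, a granulosa cell gene, was at 141.4 CPM (reads of a gene relative to the scaled library total) there, against 12.9 or less in every other uterus library, and the summed level of 6 uterus markers was 404.3 CPM there, against 644.6 to 1289.3 CPM in the others.

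In the ovary the genotype comparison gave 2 calls and a wide spread among libraries of 1 genotype. Of the 30 genes, Apoe rose and Stard4 fell in ARE-/- against WT ovaries, at an adjusted p below the threshold of 0.05 by edgeR's quasi-likelihood test with Benjamini-Hochberg adjustment over 24457 genes; of all those genes 10.5% were called, 6.31% higher and 4.15% lower. In all, 25 of the 30 log2 fold changes lay below 0, against 47.8% of all genes, and their median was -0.55, against 0.02 for all genes. Counts alone cannot tell fewer cells of a type from less RNA per cell, here and in every comparison of these whole tissues. Nothing in the labels says whether the libraries of a group came from separate mice, so the p-values measure the spread between libraries.

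**Figure D1:**
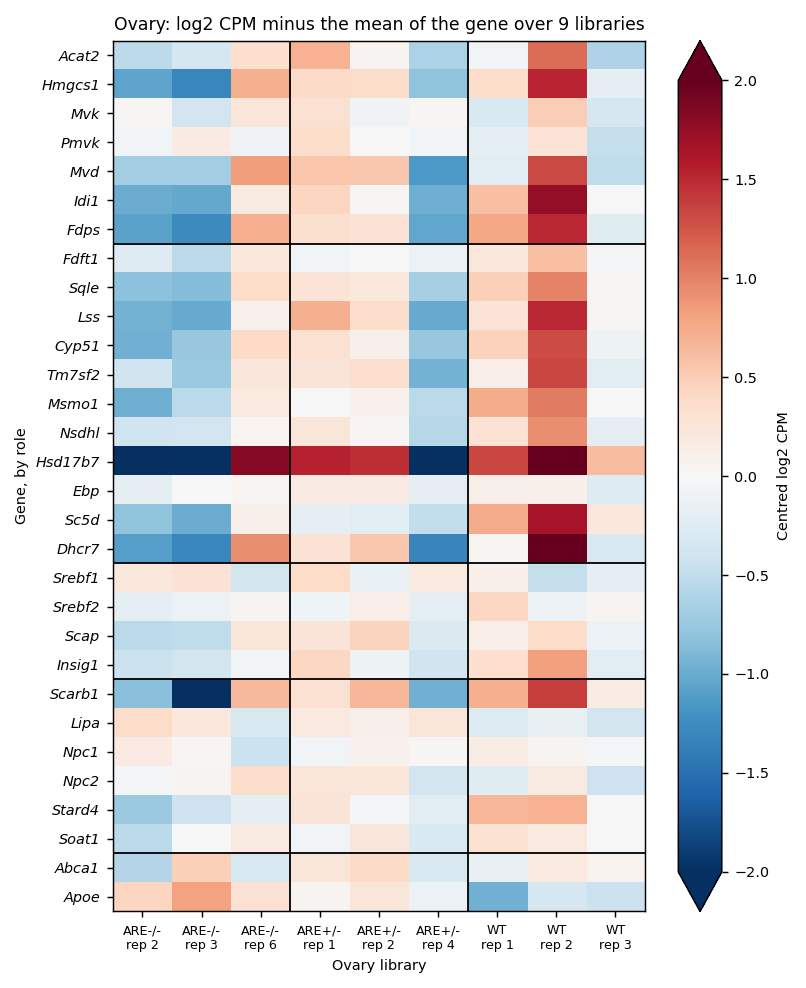
Log2 CPM of each of the 30 genes (rows, grouped by role) in each of the 9 ovary libraries (columns: ARE-/-, ARE+/-, WT), minus the gene's mean over the 9 libraries; the colour scale stops at -2 and 2. ARE-/- replicates 2 and 3 and ARE+/- replicate 4 are blue through most enzyme rows, WT replicate 2 is red, and the Apoe row runs the other way.

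The 7 enzymes from acetyl-CoA to farnesyl pyrophosphate gave 0 calls in ARE-/- against WT ovaries by edgeR, with 1 at an unadjusted p under 0.05 and 0 by DESeq2, and a median log2 fold change of -0.46. Hmgcs1, the cytosolic synthase that makes HMG-CoA, was at 130.3, 110.5 and 444.0 CPM in ARE-/- ovaries, 353.6, 349.4 and 155.7 CPM in ARE+/- ovaries, and 352.5, 778.7 and 241.2 CPM in WT ovaries. The ARE-/- library of replicate 6 lay above 2 of the 3 WT libraries, so the groups overlapped. Its log2 fold change was -1.0 ± 0.69 (SE, n = 3 libraries per group; adjusted p = 0.41, edgeR).

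Idi1, which isomerises isopentenyl pyrophosphate, was at 35.6, 35.0 and 79.9 CPM in ARE-/- ovaries, 95.7, 72.1 and 36.1 CPM in ARE+/- ovaries, and 107.3, 239.1 and 70.6 CPM in WT ovaries. Only the lowest WT library overlapped with ARE-/-, and the log2 fold change was -1.47 ± 0.59 (SE; edgeR adjusted p = 0.17). Fdps, farnesyl pyrophosphate synthase, was at 62.8, 54.5 and 217.6 CPM in ARE-/- ovaries, 163.8, 160.0 and 63.7 CPM in ARE+/- ovaries, and 224.3, 374.3 and 111.0 CPM in WT ovaries. The same 3 libraries, ARE-/- replicates 2 and 3 and ARE+/- replicate 4, were the lowest. Acat2, the cytosolic thiolase that begins the pathway by joining acetyl-CoA units, ranged over 34.2 to 62.4 CPM in ARE-/-, 31.7 to 79.3 CPM in ARE+/- and 32.0 to 106.6 CPM in WT ovaries. Mvd, mevalonate diphosphate decarboxylase, ranged over 18.9 to 54.7 CPM in ARE-/-, 13.8 to 45.0 CPM in ARE+/- and 21.5 to 76.6 CPM in WT ovaries. The kinases varied least of these enzymes: Mvk, mevalonate kinase, averaged 25.9 ± 5.33, 27.9 ± 3.77 and 26.1 ± 9.07 CPM in ARE-/-, ARE+/- and WT ovaries (SD, n = 3 each), and Pmvk, phosphomevalonate kinase, averaged 17.8 ± 1.65, 19.1 ± 3.14 and 16.5 ± 4.45 CPM.

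The 11 enzymes from squalene to cholesterol also gave 0 calls by edgeR, with 2 at an unadjusted p under 0.05 and 2, Sc5d and Msmo1, by DESeq2. All 11 log2 fold changes were below 0, from -1.83 to -0.04, with a median of -0.98. Sc5d, a sterol desaturase near the end of the pathway, was the one enzyme whose ARE-/- libraries all lay below all WT libraries. Such a gap was seen for 14.4% of all genes. Sc5d was at 68.5, 60.2 and 128.0 CPM in ARE-/- ovaries, 104.8, 102.8 and 85.4 CPM in ARE+/- ovaries, and 200.4, 377.1 and 139.3 CPM in WT ovaries. The ARE+/- libraries also lay below all WT libraries, as for 11.3% of all genes. Its log2 fold change was -1.48 ± 0.41 for ARE-/- against WT (SE; edgeR adjusted p = 0.065) and -1.29 ± 0.41 for ARE+/- against WT (adjusted p = 0.19). Without WT replicate 3 the adjusted p for ARE-/- against WT was 0.047, and without ARE-/- replicate 6 it was 0.032. Without WT replicate 2 the log2 fold change was -1.01, and over all alternatives the adjusted p reached 0.17.

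Msmo1, the methylsterol monooxygenase that removes methyl groups from lanosterol products, was at 49.4, 67.0 and 112.4 CPM in ARE-/- ovaries, 97.3, 104.2 and 67.5 CPM in ARE+/- ovaries, and 163.5, 201.3 and 96.9 CPM in WT ovaries. ARE-/- replicate 6 lay above WT replicate 3 and below the other WT libraries. The log2 fold change was -1.01 ± 0.37 (SE; edgeR adjusted p = 0.13), and without ARE-/- replicate 6 it was -1.42 with an adjusted p of 0.041, while over all alternatives the adjusted p reached 0.29. Fdft1, squalene synthase, was at 76.3, 62.9 and 105.6 CPM in ARE-/- ovaries, 88.3, 91.4 and 84.5 CPM in ARE+/- ovaries, and 106.3, 139.8 and 89.0 CPM in WT ovaries. Its log2 fold change was -0.45 ± 0.20 (adjusted p = 0.19), and -0.70 with an adjusted p of 0.033 without ARE-/- replicate 6, against -0.28 and 0.44 without WT replicate 2. Fdft1 shares 774 exon bases with the opposite-strand gene Ctsb, which had a median of 41724 counts per ovary library against 3548 for Fdft1, and the sources used here do not say whether the counting used strand.

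Lss, which closes squalene epoxide into lanosterol, was at 22.1, 21.1 and 44.9 CPM in ARE-/- ovaries, 69.0, 54.2 and 21.0 CPM in ARE+/- ovaries, and 51.3, 121.0 and 43.2 CPM in WT ovaries. Its log2 fold change was -1.29 ± 0.58 (SE; edgeR adjusted p = 0.21), with ARE-/- replicate 6 just above the lowest WT library. Sqle, the squalene epoxidase and a rate-controlling step of the pathway, was at 40.2, 38.8 and 91.6 CPM in ARE-/- ovaries, 85.1, 81.7 and 44.5 CPM in ARE+/- ovaries, and 98.0, 141.3 and 72.2 CPM in WT ovaries. Cyp51, lanosterol demethylase, was at 45.8, 52.6 and 116.4 CPM in ARE-/- ovaries, 109.3, 95.1 and 52.7 CPM in ARE+/- ovaries, and 121.8, 218.8 and 82.8 CPM in WT ovaries. Nsdhl, the sterol dehydrogenase that works beside Msmo1, was at 25.9, 26.1 and 35.0 CPM in ARE-/- ovaries, 40.3, 34.4 and 22.8 CPM in ARE+/- ovaries, and 41.4, 64.7 and 30 CPM in WT ovaries. In each of these enzymes ARE-/- replicates 2 and 3 and ARE+/- replicate 4 were the lowest 3 libraries and WT replicate 2 the highest. Tm7sf2, a sterol reductase, ranged over 15.5 to 30.4 CPM in ARE-/-, 13.5 to 32.9 CPM in ARE+/- and 22.5 to 65.9 CPM in WT ovaries. Ebp, the sterol isomerase, varied little, at 33.4 ± 2.76, 35.8 ± 4.85 and 34.3 ± 4.96 CPM in ARE-/-, ARE+/- and WT ovaries (SD, n = 3 each).

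Hsd17b7, a reductase of the cholesterol pathway that also makes estradiol from estrone and is abundant in the rodent corpus luteum, had the widest range of the 30 genes. It was at 23.0, 14.8 and 699.5 CPM in ARE-/- ovaries, 578.0, 553.5 and 22.7 CPM in ARE+/- ovaries, and 500.3, 1810.6 and 305.3 CPM in WT ovaries. Within ARE-/- the highest library held 47.1 times the level of the lowest, within ARE+/- 25.5 times and within WT 5.93 times. ARE-/- replicate 6 lay above 2 of the 3 WT libraries. The log2 fold change for ARE-/- against WT was -1.83 ± 1.74 (SE; edgeR adjusted p = 0.57). Dhcr7, which makes cholesterol from its dehydrocholesterol precursor, was at 44.3, 38.5 and 181.6 CPM in ARE-/- ovaries, 117.1, 139.1 and 38.1 CPM in ARE+/- ovaries, and 98.0, 459.2 and 76.3 CPM in WT ovaries. Its ratio of highest to lowest library was 4.72 in ARE-/-, 3.65 in ARE+/- and 6.02 in WT, so that no genotype was uniform. Hsd17b7, Dhcr7, Hmgcs1, Fdps and Scarb1 were chosen for per-library values after these were seen.

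The same libraries stood low or high across the list. ARE-/- replicates 2 and 3 were among the lowest 3 of 9 ovary libraries in 16 and 15 of the 18 synthesis enzymes, and ARE+/- replicate 4 in 16. WT replicate 2 was the highest in 16 of the 18. The mean centred log2 CPM of the 18 enzymes in replicate order was -0.80, -0.87 and 0.41 for ARE-/-, 0.36, 0.24 and -0.80 for ARE+/-, and 0.32, 1.27 and -0.14 for WT. Within each group the enzymes thus split the libraries: 2 low and 1 higher in ARE-/-, 2 higher and 1 low in ARE+/-. The median ratio of highest to lowest library over the 30 genes was 1.77 in ARE-/-, 1.63 in ARE+/- and 1.99 in WT ovaries, against 1.27, 1.19 and 1.17 for genes at 5 CPM or more.

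**Figure D2:**
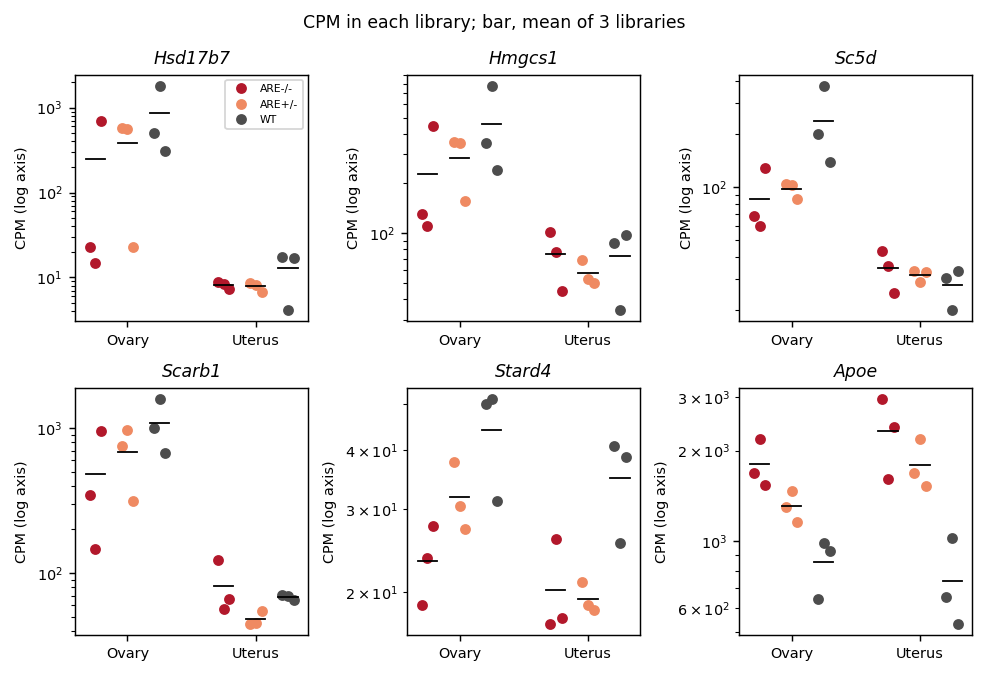
CPM on a log axis in each library of the ovary and the uterus for 6 of the genes, coloured by genotype (left to right ARE-/-, ARE+/-, WT); bars are means of 3 libraries, and CPM were scaled within each tissue. Hsd17b7 and Scarb1 sit far higher in the ovary than in the uterus and scatter widely in ARE-/- and ARE+/- ovaries, while Apoe in ARE-/- lies above WT in both tissues.

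Among the sterol-sensing genes none was called in ARE-/- against WT ovaries by edgeR, 1 had an unadjusted p under 0.05 and none was called by DESeq2. Insig1, which retains SCAP in the endoplasmic reticulum and is itself an SREBP target, was at 56.8, 58.9 and 73.7 CPM in ARE-/- ovaries, 101.3, 70.8 and 58.0 CPM in ARE+/- ovaries, and 96.7, 134.1 and 66.3 CPM in WT ovaries. ARE-/- replicate 6 lay above the lowest WT library, and the log2 fold change was -0.65 ± 0.28 (SE; edgeR adjusted p = 0.18). The transcription factor and escort genes follow as means. Srebf2, the factor tied most closely to cholesterol genes, averaged 163.8 ± 14.1 CPM in ARE-/-, 167.8 ± 18.8 CPM in ARE+/- and 189.5 ± 36.1 CPM in WT ovaries (SD, n = 3 each). Srebf1, tied more to fatty acid genes, averaged 147.0 ± 33.4, 155.7 ± 26.7 and 124.3 ± 25.2 CPM in the same order of genotypes. Scap, the escort, averaged 241.1 ± 79.4, 315.2 ± 77.4 and 308.0 ± 51.6 CPM.

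Of the 6 genes of uptake, release and transport, Stard4 fell in ARE-/- ovaries. Stard4, a small carrier protein that moves cholesterol between membranes, was at 18.8, 23.6 and 27.6 CPM in ARE-/- ovaries, 37.7, 30.5 and 27.2 CPM in ARE+/- ovaries, and 50, 51.2 and 31.2 CPM in WT ovaries. Every ARE-/- library lay below every WT library. Such a gap was seen for 14.4% of all genes. Its log2 fold change was -0.92 ± 0.21 (SE; adjusted p = 0.026, edgeR quasi-likelihood test). The call was lost on leaving out any 1 of WT replicate 1, WT replicate 2, ARE-/- replicate 2 or ARE-/- replicate 3, with adjusted p values of 0.098, 0.076, 0.081 and 0.07, and with the replicate block (adjusted p = 0.089). For ARE+/- against WT the log2 fold change was -0.47 ± 0.21 (adjusted p = 0.32), and for ARE-/- against ARE+/- it was -0.45 ± 0.21 (adjusted p = 0.62).

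Scarb1, the receptor through which luteal cells take cholesterol ester from high-density lipoprotein, was at 343.4, 145.9 and 957.4 CPM in ARE-/- ovaries, 759.3, 968.9 and 314.8 CPM in ARE+/- ovaries, and 1006.2, 1588.0 and 676.6 CPM in WT ovaries. Its low libraries were again ARE-/- replicates 2 and 3 and ARE+/- replicate 4, the groups overlapped, and the log2 fold change was -1.18 ± 0.74 (SE; edgeR adjusted p = 0.36). Lipa, the lysosomal acid lipase that frees cholesterol from endocytosed esters, was at 111.8, 101.3 and 69.6 CPM in ARE-/- ovaries, 99.2, 93.7 and 103.3 CPM in ARE+/- ovaries, and 71.8, 78.4 and 67.5 CPM in WT ovaries. All ARE+/- libraries and ARE-/- replicates 2 and 3 lay above WT, while ARE-/- replicate 6 lay among the WT libraries. ARE+/- lay wholly above WT for 14.7% of all genes. The log2 fold change of Lipa was 0.38 ± 0.15 for ARE-/- against WT (adjusted p = 0.15), and 0.54 with an adjusted p of 0.0082 without ARE-/- replicate 6, against 0.22 and 0.43 without ARE-/- replicate 2. Soat1, which esterifies cholesterol for storage, averaged 498.4 ± 120.3 CPM in ARE-/-, 520.4 ± 96.3 CPM in ARE+/- and 597.0 ± 61.8 CPM in WT ovaries (SD, n = 3 each). Npc1, which hands cholesterol out of the lysosomal membrane, averaged 64.0 ± 13.1, 67.5 ± 3.32 and 69.5 ± 4.54 CPM, and Npc2, its soluble lysosomal partner, 255.1 ± 37.6, 244.0 ± 54.5 and 211.9 ± 46.7 CPM, in the same order of genotypes.

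Apoe rose in ARE-/- ovaries. Apoe, the apolipoprotein that loads cholesterol onto lipoproteins and is made by macrophages among other cells, was at 1686.0, 2179.9 and 1535.9 CPM in ARE-/- ovaries, 1296.8, 1471.1 and 1158.1 CPM in ARE+/- ovaries, and 645.4, 991.7 and 932.5 CPM in WT ovaries. All ARE-/- libraries lay above all ARE+/- libraries, and all of those above all WT libraries. Of all genes 16.1% had such a gap of ARE-/- above WT and 14.7% of ARE+/- above WT. For ARE-/- against WT it changed by 1.07 ± 0.18 (SE; adjusted p = 0.0076, edgeR quasi-likelihood test), on the log2 scale, that is 2.10-fold. The call held on leaving out each ovary library in turn. For ARE+/- against WT the log2 fold change was 0.61 ± 0.18 (adjusted p = 0.14), and for ARE-/- against ARE+/- it was 0.46 ± 0.18 (adjusted p = 0.56). Abca1, which loads cholesterol onto apolipoproteins at the cell surface, averaged 169.0 ± 68.8 CPM in ARE-/-, 195.1 ± 45.6 CPM in ARE+/- and 182.9 ± 21.5 CPM in WT ovaries (SD, n = 3 each).

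Of the 30 genes 0 were called by edgeR in ARE+/- against WT ovaries, where 1.71% of all genes were called; 3 had an unadjusted p under 0.05 and 2, Sc5d and Apoe, were called by DESeq2. The median log2 fold change was -0.36, against 0.02 for all genes. For ARE-/- against ARE+/- ovaries 0 were called by edgeR, 1 had an unadjusted p under 0.05 and 0 were called by DESeq2, with 0.0491% of all genes called and a median of -0.20. Of the 30 only Apoe had every ARE-/- library above every ARE+/- library, as had 6.32% of all genes, and none had them all below, as had 6.67%. The ARE-/- and ARE+/- comparisons share the WT libraries.

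Markers of other cells moved with these libraries. The summed level of 8 luteal cell markers was, in replicate order, 2414.9, 1227.9 and 7137.6 CPM for ARE-/-, 5453.7, 9601.0 and 2433.4 CPM for ARE+/-, and 12566.6, 11335.7 and 7553.1 CPM for WT. The 3 libraries low in synthesis enzymes were thus also the 3 lowest in luteal markers. Of the 8 luteal markers 0 were called in ARE-/- against WT ovaries by edgeR, and their median log2 fold change was -1.88. The 10 steroid hormone synthesis genes summed to 4147.1, 4242.1 and 9884.9 CPM in the ARE-/- libraries, 7628.5, 11765.1 and 4964.9 CPM in the ARE+/- libraries, and 10688.8, 13899.7 and 9152.0 CPM in the WT libraries, with the same 3 lowest; Star and Cyp11a1 are in both lists. Of these 10 steroid genes edgeR called 1 higher in ARE-/- against WT ovaries, Tspo (0.58 ± 0.14, adjusted p = 0.031), and 0 lower. Of all genes 6.31% were called higher and 4.15% lower. The median log2 fold change of the 10 was -0.94. Granulosa cell markers were low in ARE-/- replicate 3 alone. They summed to 1017.8 CPM over 8 genes there, against 1824.3 to 3259.1 CPM in the other 8 ovary libraries. The 6 adipocyte markers summed to 636.6, 1056.2 and 28.8 CPM in the ARE-/- libraries, 648.5, 102.0 and 347.8 CPM in the ARE+/- libraries, and 121.7, 93.8 and 80.4 CPM in the WT libraries. They were thus high in the 3 libraries low in enzymes and also in ARE+/- replicate 1, which was not low. Theca and stroma markers were highest in the same 3 libraries, at 3473.2, 3076.6 and 3318.7 CPM. In the other ovary libraries they summed to 1762.9 to 2956.9 CPM. Uterus markers were also highest there, at 341.5, 340.6 and 298.7 CPM, against 144.0 to 229.5 CPM in the others. The part of these cell types in the enzyme levels was not tested.

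**Figure D3:**
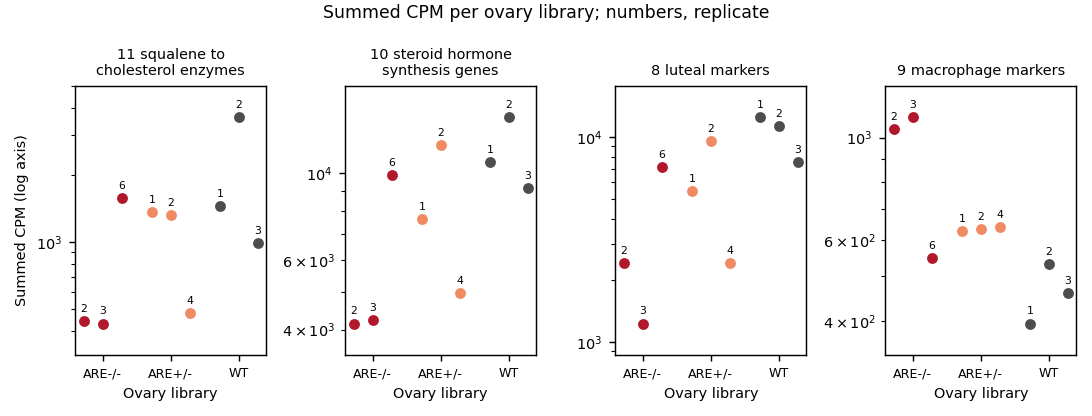
Summed CPM on a log axis in each ovary library, numbered by replicate and coloured by genotype (left to right ARE-/-, ARE+/-, WT), for 11 enzymes from squalene to cholesterol, 10 steroid hormone synthesis genes, 8 luteal markers and 9 macrophage markers. ARE-/- replicates 2 and 3 and ARE+/- replicate 4 are lowest in the first 3 panels, and ARE-/- replicates 2 and 3 are highest in the macrophage panel.

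Macrophage markers were also higher in ARE-/- tissues. Of 9 such markers 5 rose in ARE-/- against WT ovaries, where 6.31% of all genes were called higher. In ARE-/- against WT uteri 6 of 9 rose, where 3.36% of all genes were called higher. In ARE+/- against WT 4 of 9 rose in ovaries and 0 in uteri, where 1.35% and 1.08% of all genes were called higher. Their summed level was 1043.9, 1109.8 and 547.6 CPM in ARE-/- ovaries, 625.4 to 639.4 CPM in ARE+/- ovaries, and 394.6 to 530.1 CPM in WT ovaries. In the uterus it was 1038.7 to 1909.6 CPM in ARE-/-, 865.8 to 1115.4 CPM in ARE+/- and 397.5 to 528.8 CPM in WT. No marker of the 9 was at 0 in any group. Whether macrophage number or Apoe per cell differed was not tested.

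In the uterus Apoe and Npc2 rose in ARE-/- against WT, 2 of the 30 genes, where 3.75% of 24277 genes were called, 3.36% higher and 0.391% lower. DESeq2 also called Stard4. The median log2 fold change was 0.29, against 0.04 for all genes. Apoe was at 2964.1, 1606.0 and 2386.5 CPM in ARE-/- uteri, 1684.2, 2183.4 and 1528.2 CPM in ARE+/- uteri, and 655.6, 1028.8 and 534.8 CPM in WT uteri. Every ARE-/- and ARE+/- library lay above every WT library, a gap seen for 12.5% of all genes for ARE-/- and 15.7% for ARE+/-. In all, 3 of the 30 genes had ARE-/- wholly above WT and 0 wholly below, as 9.8% of all genes were. It changed by 1.65 ± 0.32 on the log2 scale for ARE-/- against WT (SE; edgeR adjusted p = 0.022) and 1.28 ± 0.32 for ARE+/- against WT (adjusted p = 0.094). Leaving out WT replicate 1 ended the ARE-/- call (adjusted p = 0.13), as did leaving out WT replicate 3 (adjusted p = 0.12) and a fit of only the ARE-/- and WT libraries (adjusted p = 0.071).

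Npc2, which binds cholesterol inside the lysosome, was at 347.1, 197.2 and 416.2 CPM in ARE-/- uteri, 182.1, 203.7 and 291.8 CPM in ARE+/- uteri, and 106.4, 151.1 and 95.7 CPM in WT uteri. Both groups with the ARE allele lay wholly above WT. Npc2 changed by 1.44 ± 0.31 on the log2 scale for ARE-/- against WT (SE; edgeR adjusted p = 0.036), and 0.94 ± 0.31 for ARE+/- against WT (adjusted p = 0.20). This call was lost on leaving out any 1 of WT replicates 1 and 3, ARE+/- replicates 1 and 2 and ARE-/- replicates 1 and 3, with adjusted p values of 0.18, 0.19, 0.058, 0.068, 0.067 and 0.093. It was also lost in a fit of only the ARE-/- and WT libraries (adjusted p = 0.083) and with the replicate block (adjusted p = 0.061). In the ovary Npc2 had a log2 fold change of 0.27 ± 0.20 (adjusted p = 0.44), and the difference between the tissues in the ARE-/- effect, ovary minus uterus, was -1.18 ± 0.39 (adjusted p = 0.20).

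Stard4 was at 17.2, 25.9 and 17.7 CPM in ARE-/- uteri, 21.0, 18.8 and 18.4 CPM in ARE+/- uteri, and 40.8, 25.4 and 38.7 CPM in WT uteri. All ARE+/- libraries lay below WT, as for 12.9% of all genes, and ARE-/- replicate 2 just above the lowest WT library. The log2 fold change was -0.79 ± 0.23 for ARE-/- against WT (SE; edgeR adjusted p = 0.10) and -0.85 ± 0.23 for ARE+/- against WT (adjusted p = 0.13). Insig1 was at 96.6, 47.1 and 38.3 CPM in ARE-/- uteri, 27.5, 25.4 and 26.1 CPM in ARE+/- uteri, and 38.5, 16.3 and 32.1 CPM in WT uteri. Its log2 fold change was 1.07 ± 0.38 for ARE-/- against WT (adjusted p = 0.16), with the highest level in ARE-/- replicate 1.

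The synthesis enzymes gave 0 calls among 18 in ARE-/- against WT uteri by edgeR, 0 at an unadjusted p under 0.05 and 0 by DESeq2. Their level turned on single libraries: ARE-/- replicate 1 was the highest of 9 uterus libraries in 14 of the 18 and WT replicate 2 the lowest in 13. The mean centred log2 CPM of the enzymes in replicate order was 0.82, 0.05 and -0.25 for ARE-/-, -0.01, -0.23 and -0.39 for ARE+/-, and 0.40, -0.74 and 0.34 for WT. ARE-/- replicate 1 also held the highest sum of 6 adipocyte markers, 6177.2 CPM against 21.1 to 871.8 CPM in the other uterus libraries, and of 10 steroid hormone synthesis genes, 802.8 CPM against 185.5 to 257.7 CPM. The part of these cells in the uterus values was not tested. Hsd17b7, high in the ovary, was at 8.77, 8.30 and 7.37 CPM in ARE-/- uteri, 8.67, 8.03 and 6.79 CPM in ARE+/- uteri, and 17.6, 4.10 and 16.8 CPM in WT uteri. Its log2 fold change over all libraries was -0.66 ± 0.45 for ARE-/- against WT uteri (SE, edgeR adjusted p = 0.46). For ARE+/- against WT uteri it was -0.71 ± 0.45 (adjusted p = 0.53), so neither was called. Without WT replicate 2, the lowest WT library, Hsd17b7 was called lower in ARE-/- uteri, at -1.08 and an adjusted p of 0.032. The same fit called it lower in ARE+/- uteri, at -1.14 and 0.042.

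**Figure D4:**
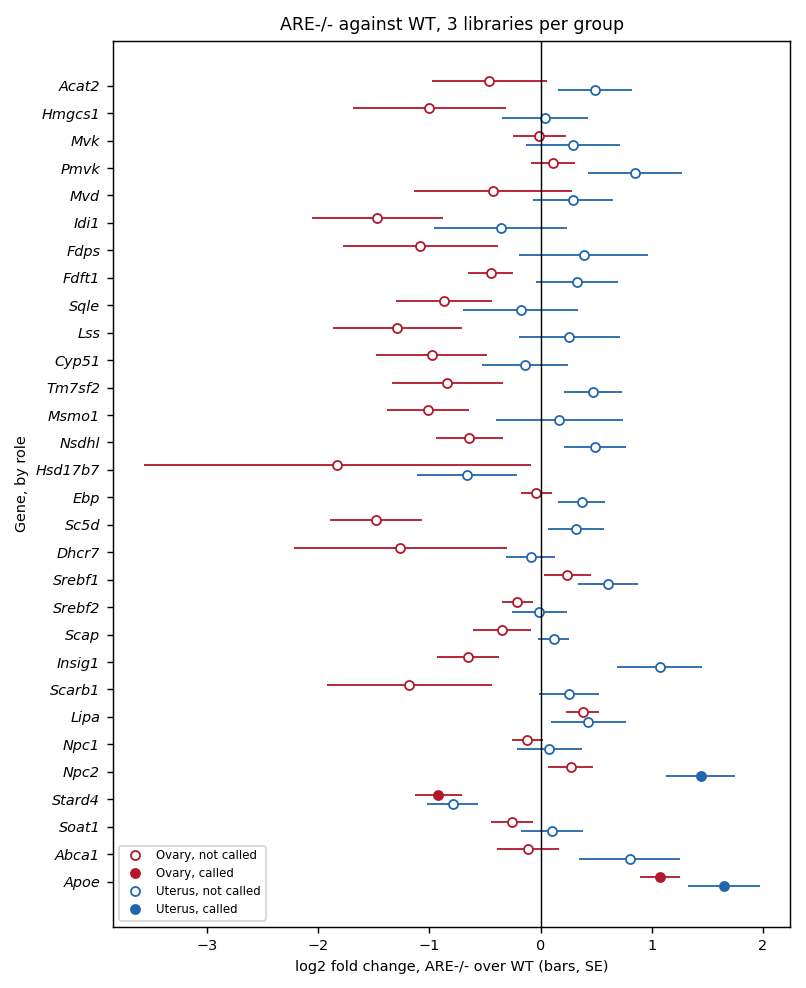
Log2 fold change of ARE-/- over WT with its SE for each of the 30 genes in the ovary (red) and the uterus (blue), from 3 libraries per group; filled points were called by edgeR at an adjusted p under 0.05. Most ovary points lie left of 0 and most uterus points right of it, with wide errors, and Apoe lies right of 0 in both tissues.

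Of the 30 genes 0 were called by edgeR in ARE+/- against WT uteri, where 1.14% of all genes were called, 1.08% higher and 0.0535% lower; 3 had an unadjusted p under 0.05 and 2, Apoe and Stard4, were called by DESeq2. The median log2 fold change was -0.20, against 0.01 for all genes. For ARE-/- against ARE+/- uteri 0 of 24277 genes were called by edgeR, 1182 had an unadjusted p under 0.05 and 186 were called by DESeq2. Among the 30 genes 3 had an unadjusted p under 0.05, Nsdhl, Insig1 and Scarb1, and 0 were called by DESeq2. Those 3 and Srebf2 had every ARE-/- library above every ARE+/- library, as had 4.77% of all genes, and 0 of the 30 had them all below, as had 4.3%.

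The difference of the ARE-/- effect between the tissues was tested directly. All 30 differences, ovary minus uterus, were below 0, against 52.6% of all genes, with a median of -0.88 against -0.04 for all genes. The 30 genes share these libraries, so their directions are not independent. The mean centred log2 CPM of the 18 enzymes was 1.27 in WT ovary replicate 2, 0.82 in ARE-/- uterus replicate 1 and -0.74 in WT uterus replicate 2. Of the 30 differences none was called by edgeR, 5 had an unadjusted p under 0.05 and DESeq2 called 2, Sc5d and Insig1. Of all genes edgeR called 0.169%, 0.06% higher and 0.109% lower. The difference was -1.80 ± 0.48 for Sc5d (SE; edgeR adjusted p = 0.13), -1.71 ± 0.50 for Insig1 (adjusted p = 0.16), -1.13 ± 0.42 for Nsdhl (adjusted p = 0.25) and -1.30 ± 0.55 for Tm7sf2 (adjusted p = 0.31). For the ARE+/- effect 0 of 30 were called by edgeR, 1 had an unadjusted p under 0.05 and 0 were called by DESeq2, with 0.00375% of all genes called.

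WT tissues differed more plainly than genotypes. Between WT ovary and WT uterus 15 of the 30 genes were called higher in the ovary and 0 lower, where 13.3% of 26682 genes were called higher and 11.9% lower, by edgeR in 1 fit over both count tables. The median log2 fold change was 1.38, against -0.02 for all genes. Of the 11 enzymes from squalene to cholesterol 9 were higher: Hsd17b7 (log2 fold change 5.95 ± 1.51, adjusted p = 0.0096), Sc5d (2.95 ± 0.36, 3.8e-05), Dhcr7 (2.90 ± 0.72, 0.0087), Msmo1 (2.23 ± 0.54, 0.0066), Lss, Tm7sf2, Cyp51, Nsdhl and Fdft1, with the last 5 between 1.04 and 1.75. Ebp and Sqle missed the threshold, at 0.26 ± 0.17 (adjusted p = 0.30) and 1.35 ± 0.52 (adjusted p = 0.071). Of the first 7 enzymes Hmgcs1 (2.51 ± 0.60, adjusted p = 0.0064) and Fdps (2.46 ± 0.70, adjusted p = 0.019) were higher.

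Hsd17b7 was at 500.3, 1810.6 and 305.3 CPM in WT ovaries and 17.6, 4.10 and 16.8 CPM in WT uteri, with each set of CPM scaled within its tissue. The fitted difference was 61.7-fold, a log2 fold change of 5.95, and without WT ovary replicate 2 the log2 fold change was 4.82. Scarb1 was at 1006.2, 1588.0 and 676.6 CPM in WT ovaries and 71.2, 69.2 and 65.4 CPM in WT uteri, a log2 fold change of 3.85 ± 0.61 (SE; edgeR adjusted p = 0.00032). Soat1 was at 653.6, 606.2 and 531.0 CPM in WT ovaries and 58.6, 110.0 and 66.6 CPM in WT uteri, a log2 fold change of 2.79 ± 0.27 (adjusted p = 4.2e-06). For these 3 genes every WT ovary library lay above every WT uterus library on these scales. The share of all genes with such a gap between the tissues was not counted. Scap (1.83 ± 0.22, adjusted p = 2.4e-05) and Insig1 (1.63 ± 0.36, adjusted p = 0.0034) were also higher in WT ovary. Srebf1 (0.07 ± 0.24, adjusted p = 0.88), Apoe (0.07 ± 0.26, adjusted p = 0.88), Stard4 (0.19 ± 0.23, adjusted p = 0.61) and Npc1 (0.16 ± 0.24, adjusted p = 0.69) were not called.

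**Figure D5:**
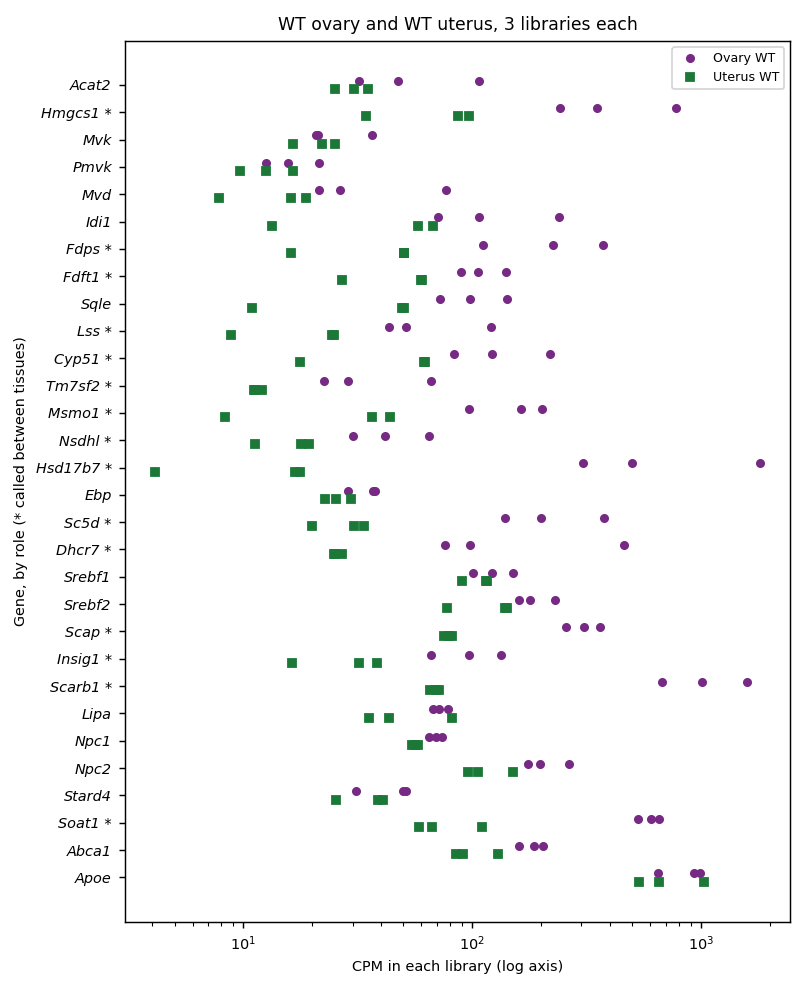
CPM on a log axis of the 30 genes in each WT ovary (circles) and WT uterus (squares) library, scaled within each tissue; stars mark genes called between the tissues in 1 fit over both. Hsd17b7, Scarb1 and Sc5d are the furthest apart by fitted fold, and Apoe, Mvk, Pmvk and Srebf1 overlap.

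Leaving out WT ovary replicate 2 brought the count of 15 to 9, with Soat1, Sc5d, Scap, Scarb1, Insig1, Nsdhl, Msmo1, Hsd17b7 and Hmgcs1 still called. With genotype and replicate number together as a block 15 were called again, but Fdft1, Lss and Cyp51 were no longer among them and Abca1, Npc2 and Srebf2 were. On a scale per kilobase of exon, the highest of the 30 in WT ovary were Apoe at 466.0 ± 100.8 CPM per kb, Scarb1 at 432.5 ± 183.1, Hsd17b7 at 172.8 ± 162.2, Fdps at 162.8 ± 90.9 and Hmgcs1 at 131.4 ± 81.5 (SD, n = 3 libraries). The last 3 did not differ beyond their spread. In WT uterus Apoe led at 402.5 ± 140.1 CPM per kb, followed by Npc2 at 35.7 ± 8.91, and Hsd17b7 was the lowest at 2.55 ± 1.5.

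Of 33 other measured sterol pathway genes, 6 rose and 2 fell in ARE-/- against WT ovaries, 8 of 33 against 10.5% of all genes. Among those with the smallest p, Stard5 (0.49 ± 0.10, adjusted p = 0.017) and Stard3 (0.40 ± 0.09, adjusted p = 0.027), both sterol carriers, rose, as did Nr1h2 (0.36 ± 0.07, adjusted p = 0.014), which encodes an oxysterol-sensing liver X receptor. Mbtps2 (-0.54 ± 0.13, adjusted p = 0.025), the protease that makes the second cleavage of SREBP, fell. In ARE-/- against WT uteri, where 3.36% of all genes were called higher, 3 of 33 rose: Lpl (4.51 ± 0.72, adjusted p = 0.011) and Lipe (3.33 ± 0.67, adjusted p = 0.028), lipases abundant in fat cells, and Pltp (1.19 ± 0.27, adjusted p = 0.039), the phospholipid transfer protein. Of 11 fatty acid synthesis genes 3 rose in ARE-/- uteri, against the same 3.36%: Scd1 (3.6 ± 0.51, adjusted p = 0.0058), Fasn (2.07 ± 0.37, adjusted p = 0.016) and Acaca (1.46 ± 0.32, adjusted p = 0.038), and all 6 adipocyte markers rose there too; the part of fat cells in these calls was not tested. In ARE-/- ovaries 1 of the 11, Gpam, fell (-0.74 ± 0.16, adjusted p = 0.021).

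In the authors' deposited table of a likelihood-ratio test across the 3 genotypes, 4 of the 30 genes had an adjusted p under 0.05 in the ovary, Apoe (3.1e-05), Stard4 (0.0035), Sc5d (0.016) and Msmo1 (0.022), against 12.1% of genes in that table. In the uterus the authors' deposited table had Apoe (0.00021), Npc2 (0.0045), Stard4 (0.03) and Insig1 (0.049) under 0.05, against 7.55% of genes.

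By pattern over the 9 ovary libraries, as a description among 14422 genes whose points share library and depth, the gene most like Stard4 was March7 (Pearson r = 0.969) and the gene most like Apoe was Sat1 (r = 0.982). The genes most like the mean of the 18 synthesis enzymes were Gm48342 (r = 0.991), Rdh11 (r = 0.986) and Rab27a (r = 0.983); this mean was added after the values were seen. Gm48342 shares 557 exon bases with Hmgcs1 on the opposite strand, so its counts may hold the same reads. In all, 9 of the 30 genes had exons that overlap another annotated gene. Except for Tm7sf2 the other genes lay on the opposite strand, where reads were counted for both only if strand was ignored.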

How the data were processed

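The deposited tables hold counts of reads per gene for 9 ovary and 9 uterus libraries, made by the authors with featureCounts 2.0.4 and GENCODE M32, with multi-mapping and overlapping reads counted, per the file headers. STAR, DESeq2 and build mm10 are named in the submitters' processing notes; strandedness is not given in the sources used here. The even share among counts of 1 to 20 was 68.1% to 76.4%, so most read pairs may have been counted for each mate. The authors' deposited adjusted p-values come from a likelihood-ratio test across genotypes, per the name of the deposited table. The unused per-sample columns numbered 0.

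Genes were filtered and tested with edgeR 4.0.16 (quasi-likelihood, TMM factors, R 4.3.3) in 1 fit per tissue over all 3 genotypes, and in 1 fit over both tissues for the WT tissue comparison and the difference of effects; limma 3.58.1 was loaded with it. P-values were Benjamini-Hochberg adjusted over all genes tested in a comparison. The fit was tested on simulated data. CPM were scaled within each tissue. DESeq2 1.42.0, other size factors, total counts, no filter on low counts, halved counts, only the groups compared, a replicate block and each library left out were the alternatives. The replicate block was the replicate number in the fits per tissue, and genotype with replicate number in the fit over both tissues.

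The 30 genes and all gene lists were chosen with earlier results of these data known. Per-library values are given for genes called in an ovary comparison, filled to 12 by the smallest p in ARE-/- against WT ovaries, and in the uterus for called genes and the 4 smallest p; from other lists at most 4 called genes with the smallest p are named. The likeness rule tied between Apoe and Stard4, so both were used. It compared log2(CPM + 0.5) of genes at a mean of 5 CPM or more. The main tests took no libraries as paired, and a block was used only as an alternative. Every correlation of deviations of same-numbered libraries was over 0.1 for WT ovary with WT uterus (0.14, 0.26 and 0.11). This also held for ARE-/- with ARE+/- uteri (0.2, 0.3 and 0.5), where different numbers gave -0.52 to 0.29. For ARE+/- ovary with ARE+/- uterus the same numbers gave 0.18 and 0.09, and different numbers -0.11 to 0.1. For ARE-/- ovary with ARE-/- uterus these were 0.03 and 0.09, and -0.08 to 0.07. WT ovary and WT uterus libraries of different numbers had correlations from -0.24 to 0.18, so the numbers are not shown to pair these WT libraries. The labels do not say whether the numbers pair any libraries. Promoter bases came from RefSeq, GRCm38.p6. One gene of the other sterol pathway list is not reported here by name.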

Additional observations from a re-analysis of the deposited data

How the results depend on the processing

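The number of the 30 genes called changed with the setting. In ARE-/- against WT ovaries it was 2, and 4 with DESeq2, 7 with the replicate block and 1 to 6 with 1 library left out. In ARE+/- against WT ovaries it was 0, and 2 with DESeq2, 1 in a fit of only the groups compared and 0 to 1 with 1 library left out. In ARE-/- against WT uteri it was 2, and 1 with the replicate block, 0 in a fit of only the groups compared and 0 to 4 with 1 library left out. In ARE+/- against WT uteri it was 0, and 2 with DESeq2, 1 with no filter on low counts, 1 in a fit of only the groups compared and 0 to 2 with 1 library left out. For the difference of the ARE-/- effect between the tissues it was 0, and 2 with DESeq2 and 1 with the replicate block. Between WT ovary and WT uterus it was 15, and 18 with DESeq2, 18 with total counts, 13 with no filter on low counts and 9 to 16 with 1 library left out. In the ovary the replicate numbers 4 and 6 each occur in 1 library. With the replicate block, ARE+/- replicate 4 and ARE-/- replicate 6 were therefore fitted exactly and did not inform the genotype differences. Leaving out ARE-/- replicate 6 alone gave 6 calls in ARE-/- against WT ovaries. The cause of the other changes was not tested. Leaving out both backup libraries together, chosen after seeing the data, gave 15 for the WT tissues. Over all genes DESeq2 called 4139 in ARE-/- against WT ovaries, 1503 in ARE+/- against WT ovaries and 199 in ARE-/- against ARE+/- ovaries, where edgeR called 2558, 417 and 12. In the uterus DESeq2 called 2407, 1363 and 186 in the same order, where edgeR called 911, 276 and 0. With the replicate block edgeR called 1544 in ARE-/- and 59 in ARE+/- against WT ovaries, and 520 for the difference of the ARE-/- effect, against 45 without it and 824 with DESeq2. In a fit of only the groups compared it called 701 in ARE+/- against WT ovaries, 374 in ARE-/- and 922 in ARE+/- against WT uteri. With 1 library left out it called 785 to 3262 in ARE-/- against WT ovaries and 192 to 1322 in ARE-/- against WT uteri. Same-numbered ovary libraries had correlations of deviations from -0.38 to 0.07, so the number is not taken to pair them. The log2 fold change of Hsd17b7 in ARE-/- against WT ovaries ran from -5.55 to -0.73 over the alternatives, and that of Apoe from 0.88 to 1.17. Of 726 results under alternatives 673 kept their direction and side of the threshold, 38 fell short of it, 15 newly passed it and 0 turned round. They cover only selected genes in ARE-/- against WT ovaries, ARE-/- against WT uteri and WT ovary against WT uterus. Changed calls of other genes, and all of ARE+/- against WT, are not among them. Every library held at least 33185496 counts, and the SE of Hsd17b7 in ARE-/- against WT ovaries was 1.74 on the log2 scale.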

Other observations

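Other gene lists of these libraries gave the following counts by edgeR. Of all genes 6.31% were called higher and 4.15% lower in ARE-/- against WT ovaries. In ARE-/- against WT uteri 3.36% were called higher. All 10 genes of the interferon gamma response rose in ARE-/- against WT ovaries and all 10 in ARE-/- against WT uteri; Cxcl9, a chemokine of this response, had log2 fold changes of 6.72 ± 0.36 in the ovary and 5.79 ± 0.38 in the uterus (SE, n = 3 libraries per group; edgeR adjusted p = 1.8e-05 and 0.00052). All 6 T cell markers rose in ARE-/- against WT in both tissues, among them Cd8a by 4.05 ± 0.31 in the ovary and 5.36 ± 0.38 in the uterus on the log2 scale. Of 4 oviduct epithelium markers 3 rose in ARE-/- ovaries, Foxj1 (0.59 ± 0.09), Ovgp1 (0.86 ± 0.15) and Pax8 (0.82 ± 0.21). The 4 summed to 3103.8 to 3601.0 CPM in ARE-/-, 2633.0 to 3254.3 CPM in ARE+/- and 1451.7 to 2059.8 CPM in WT ovary libraries. The part of oviduct tissue in the ovary values was not tested. All 5 red cell markers rose in ARE-/- uteri. They summed to 7267.8, 1300.1 and 837.8 CPM in ARE-/- replicates 1, 2 and 3, against 95.9 to 219.7 CPM in WT uteri. Of the 8 granulosa markers, 6 theca and stroma markers and 6 oocyte markers 0 were called in ARE-/- against WT ovaries.

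Between the WT tissues, 8 of 11 fatty acid synthesis genes were higher in the ovary, against 13.3% of all genes, with Me1, the cytosolic malic enzyme that supplies NADPH, 4.37 ± 0.57 higher on the log2 scale (edgeR adjusted p = 7.3e-05) and Gpam, which begins glycerolipid synthesis, 1.86 ± 0.21 higher (adjusted p = 1.9e-05). Of 33 other sterol pathway genes 4 were higher and 4 lower in WT ovary than in WT uterus, near the shares of all genes, 13.3% higher and 11.9% lower. Gramd1b, which carries cholesterol from the plasma membrane to the endoplasmic reticulum, was higher by 2.86 ± 0.28 on the log2 scale (adjusted p = 4.2e-06). Cyp27a1, a sterol hydroxylase, had a log2 fold change of -1.77 ± 0.36 (adjusted p = 0.0019).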
